A study of Mus musculus with 3 samples.

Results

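The genes followed here were 38 matrix proteins, matrix proteases and protease inhibitors, taken by symbol from a fixed list out of the 31053 genes of the count table, and all 38 were found. They were read in stromal-like, endothelial-like and endocrine cells of mouse pancreatic islets, the small hormone-secreting organs of the pancreas. Single-cell RNA was counted in 3 droplet libraries, 1 for each group. The mice were C57Bl6/J males, retired breeders 7 to 8 months old, and every group had carried an implanted pump. Control mice had pumps without drug, with a labelled duration of 2 weeks. S961 mice received 20 nM of the insulin receptor antagonist S961 per week over 2 weeks. Recovered mice are labelled as recovered from S961, with the same 20 nM per week and 2 weeks, and had had their pumps taken out. The labels state neither how long recovery lasted nor how many mice were pooled into a library. Islets of all 3 groups spent a night in culture and were then broken up with the enzyme mix TrypLE for 10 minutes at 37 degrees, so the levels are those of cultured, dissociated cells. The groups had no replicates, every difference below is one between single libraries, no test across mice was possible, and all 95% intervals cover counting error only.

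As background, the islet matrix has 2 main forms. Basement membranes, sheets of type IV collagen, laminin and nidogen, lie under the capillaries, and in the islet they are laid down largely by endothelial cells and pericytes, the contractile cells wrapped around capillaries. The interstitial matrix of fibrillar collagens, fibronectin and small proteoglycans is made by fibroblasts. Metalloproteinases and plasminogen activators cut these networks, and the tissue inhibitors of metalloproteinases (TIMPs) block the cutting enzymes.

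After filtering, 11210 cells were analysed (control 4267, S961 3430, recovered 3513), with median depths of 6501, 9944 and 8577 unique molecular identifiers (UMIs, each counting 1 captured RNA molecule) per cell. Of 24590 barcodes, 51 sequences occurred in more than 1 library, and they touched 1 stromal-like and 1 endothelial-like cell. There were 64 stromal-like cells in the control library, 174 in the S961 library and 43 in the recovered library, and 141, 211 and 70 endothelial-like cells. All 14 pericyte-type markers found in the table had UMIs in the stromal-like cells of every library, and all 14 endothelial markers in the endothelial-like cells of every library. RNA of beta cells was also counted in these classes and differed between libraries. The summed level of 9 beta-cell markers in stromal-like cells was 91125 CPM (UMIs of a gene scaled to 1000000 UMIs of the class) in control, 3467 in S961, where only Pdx1 was at 0, and 33665 in recovered. In endothelial-like cells it was 36082, 3719 and 17650 CPM. Its part in the results was looked at only by leaving hormone genes out of the total, or leaving out cells rich in hormone RNA. Under neither did a member count in these classes change by more than 1.5 times. No ratio past 1.5-fold with an interval that left out 0 turned direction where it could still be measured. Beyond this its part was not tested.

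The stromal-like cells were not of 1 kind, and the 3 libraries held different mixtures. Cells led by Rgs5, a pericyte marker, made up 61 of 64 stromal-like cells in control (95.3%), 116 of 174 in S961 (66.7%) and 19 of 43 in recovered (44.2%). Cells led by Mfap5, a microfibril gene, numbered 3, 58 and 11. Cells led by the complement gene C3 were seen in recovered alone, with 13 cells. The summed level of the 14 fibroblast-type markers moved with this mixture, at 845 CPM in control, with Clec3b, Scara5 and Dpep1 at 0, 1389 in S961, with Scara5 at 0, and 3332 in recovered, with Pi16 and Cd34 at 0. Clusters were made without the 38 genes, so the mixture was not defined by them.

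**Figure D1:**
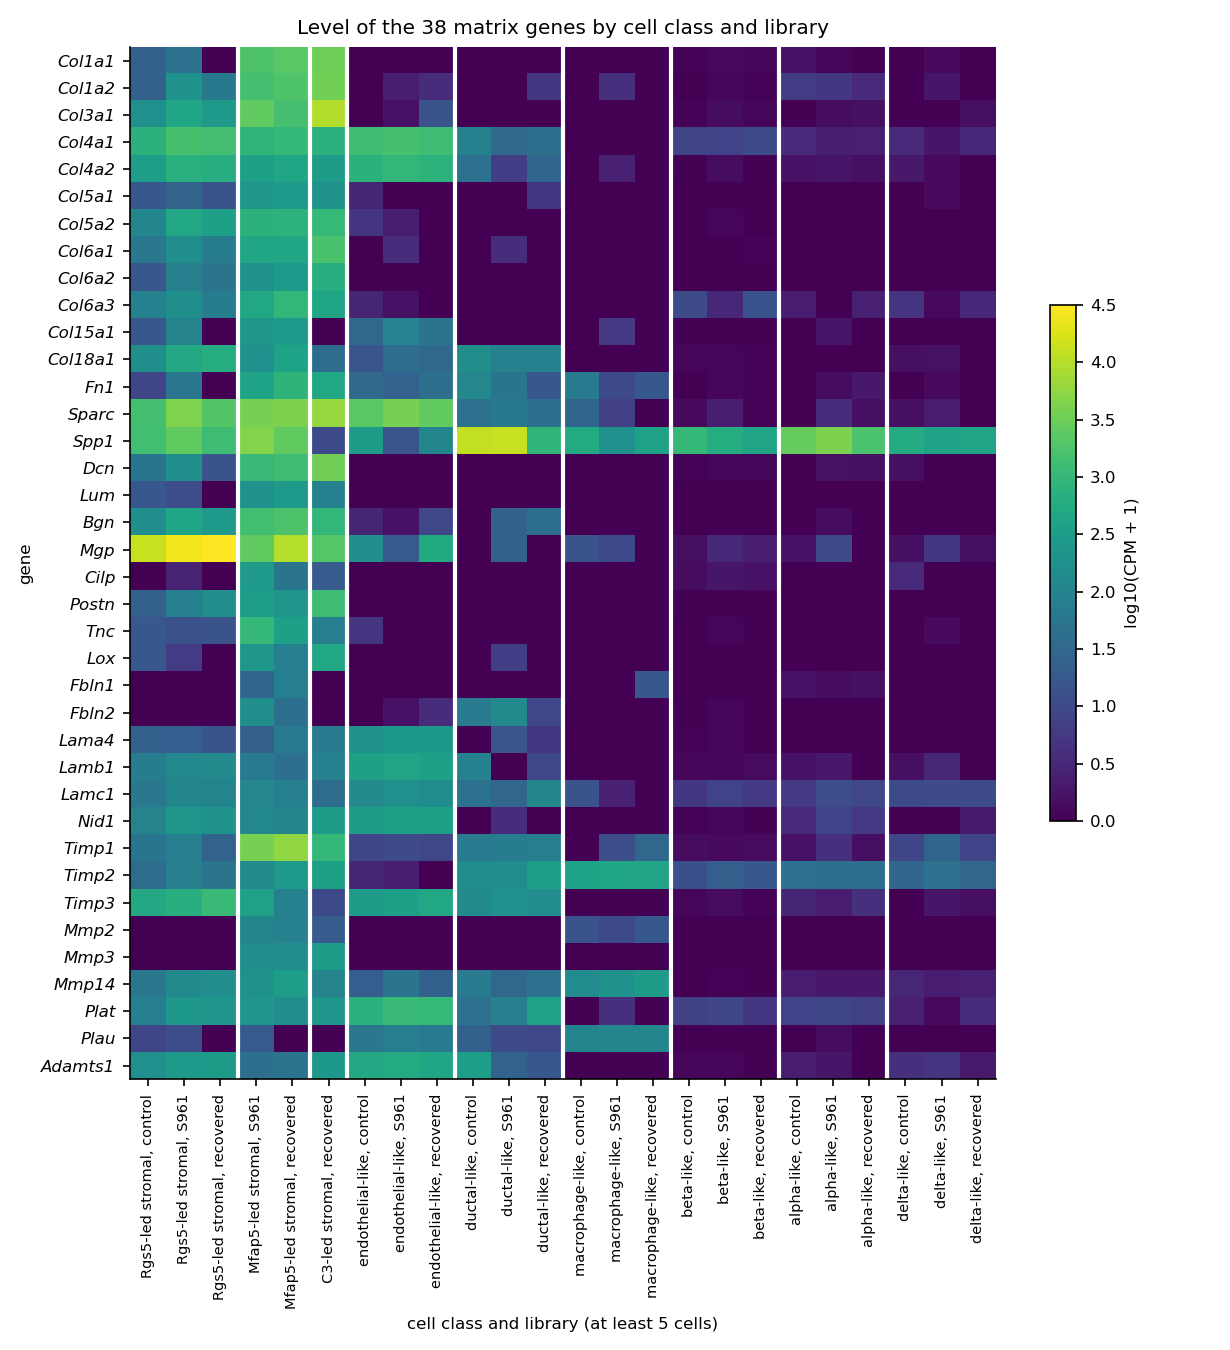
Level of each of the 38 genes, as log10 of CPM plus 1 on the colour scale, with genes as rows and each cell class and library holding at least 5 cells as columns. Most genes are bright in the stromal columns on the left, Col4a1, Col4a2, Sparc, the laminins and Plat are bright in the endothelial columns too, and Spp1 is bright in nearly every column.

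Most of the 38 genes were stromal. Stromal-like cells held 99.3% of the Col1a1 UMIs of all named classes, and 100% of those of Lum and Mmp3. The basement membrane genes were shared. Of the Col4a1 UMIs 33.1% were in stromal-like and 56.7% in endothelial-like cells, and of those of Sparc, a collagen-binding glycoprotein, 47.1% and 52.0%. Spp1, which encodes the secreted phosphoprotein osteopontin, stood apart, with 49.5% of its UMIs in beta-like, 31.7% in alpha-like and 6.21% in stromal-like cells. Macrophage-like cells had the highest level in control of Timp2 (403 CPM), of the membrane protease Mmp14 (148 CPM) and of the urokinase gene Plau (107 CPM) among classes of at least 20 cells. The levels of all 38 genes over the classes are drawn in the colour map by class and library.

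The first question was how the matrix genes of stromal-like cells differed in the islets of S961-treated mice. Of 35 members with at least 50 UMIs over both libraries, 26 were higher in S961 than in control by at least 1.5-fold, beside 24.5% of the 4635 genes measured in these cells. There were 2 lower members, beside 8.31% of all genes, and the members' median log2 ratio was 1.15, beside 0.16 over all genes. Fibrillar collagens, collagen VI, fibronectin, Sparc, the proteoglycans, Mmp14 and the tissue plasminogen activator gene Plat were all on the higher side. The 2 on the lower side were Timp1 and Lox, and both were values set by a single control cell, as described with those genes. Against S961, recovered stromal-like cells had 11 of 35 members higher (9.43% of all genes) and 8 lower (24.3% of all genes), with a median log2 ratio of 0.14 beside -0.19. Against control they had 18 of 27 members higher (20.1%) and 4 lower (12.7%), with a median of 1.27 beside 0.06. Cells thinned to 2000 UMIs gave 2 lower members for recovered over S961, and 10 higher and 0 lower for recovered over control. Thinning also left out the shallower cells, which were 33 of 64 in control, 19 of 174 in S961 and 0 of 43 in recovered. The mean CPM over cells gave 5 lower and 0 lower in the same comparisons. The 3 comparisons share libraries and are not independent of each other.

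How few cells stood behind the control values was measured by leaving out, for each gene and library, the cell with the most UMIs of that gene, an alternative added after the data had been seen. With those cells out, 29 of 34 measured members were higher in S961 than in control (34.0% of all genes) and 0 were lower (5.22%). The median log2 ratio was then 2.05, beside 0.33 over all genes. Control held 3 Mfap5-led cells and S961 held 58, so leaving out a cell could change the control mixture more. The ratios without the highest cells cannot be told apart from that difference in mixture.

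**Figure D2:**
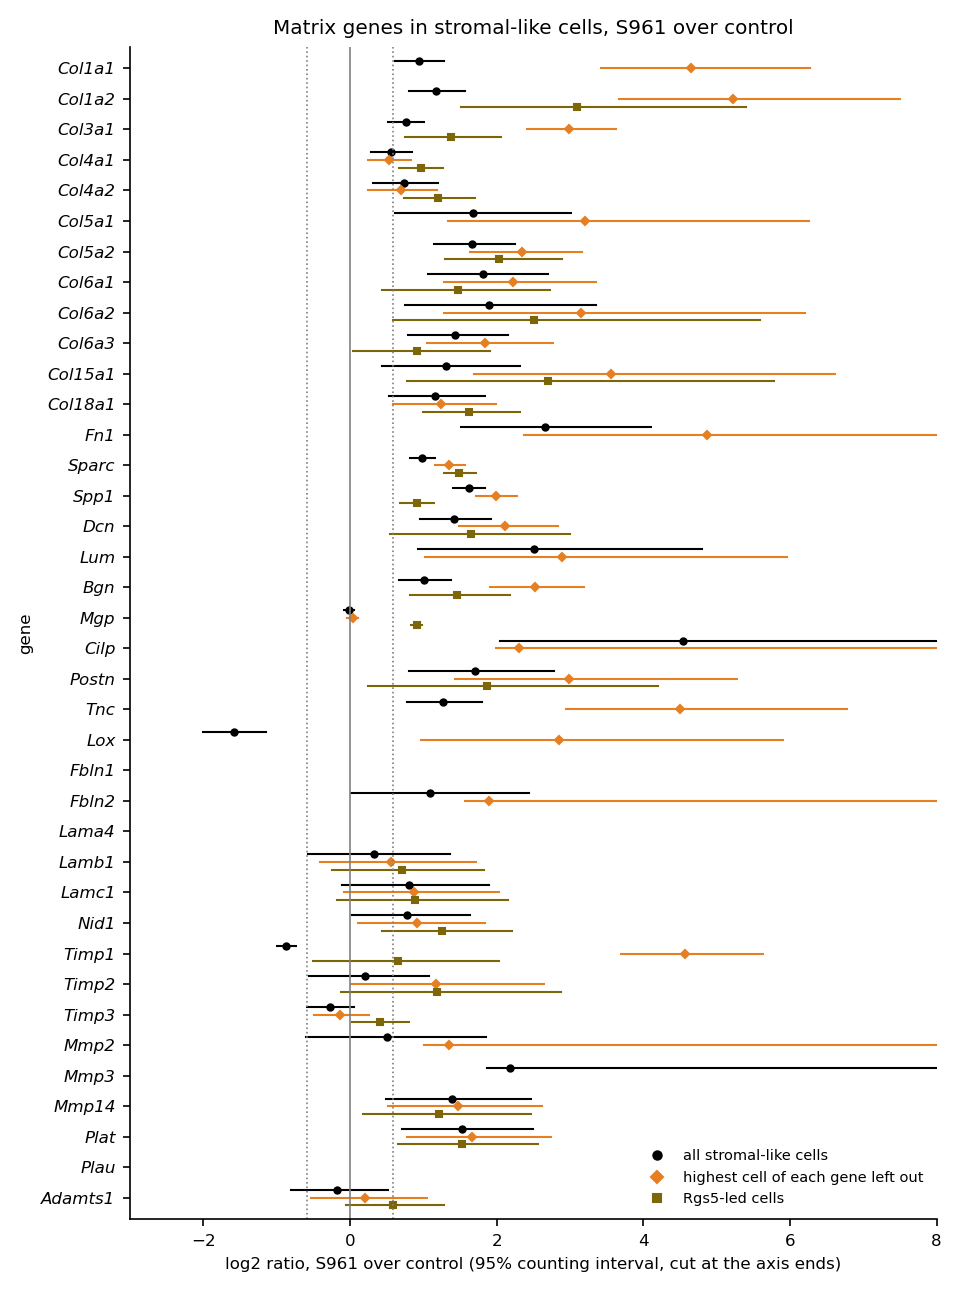
The log2 ratio of S961 over control for each gene with at least 50 UMIs, with 95% counting intervals, in all stromal-like cells (black), with the highest cell of each gene left out (orange) and within Rgs5-led cells (brown); dotted lines mark 1.5-fold. Most points lie right of the upper dotted line in all 3 series, and Timp1 and Lox lie left of 0 in all stromal-like cells alone.

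Over all stromal-like cells the fibrillar collagens, which form the tensile fibres of the interstitial matrix, were lowest in control and highest in recovered. Col1a1, which encodes the alpha-1 chain of type I collagen (chromosome 11, 94936224 to 94953042, GRCm38), was at 548 CPM in control, 1046 in S961 and 1974 in recovered. The counts behind these levels were 81, 1420 and 548 UMIs, and 93.8% of the control UMIs came from 1 cell. Its log2 ratio was 0.93 (0.61 to 1.27) for S961 over control and 0.92 (0.77 to 1.06) for recovered over S961. Without the highest cell of each library the control level was 37.1 CPM and the first of these ratios was 4.65. Col1a2, the partner chain, followed the same order with 419, 946 and 1963 CPM. Col3a1, the type III collagen of distensible tissue (chromosome 1, 45311538 to 45349706), was at 960, 1625 and 4221 CPM, with log2 ratios of 0.76 (0.51 to 1.01) and then 1.38 (1.27 to 1.48). Again 83.1% of its control UMIs lay in 1 cell. Of the 548 recovered UMIs of Col1a1, 341 lay in the 13 C3-led cells, a kind that no other library held. Within Mfap5-led cells the log2 ratio of recovered over S961 was 0.30 for Col1a1 and -0.75 for Col3a1. Within Rgs5-led cells that of Col3a1 was -0.82. Of the type V collagens, which set the width of these fibres, Col5a1 was at 47.3, 152 and 166 CPM and Col5a2 at 203, 644 and 771 CPM. Their S961 levels were 3.21-fold and 3.17-fold the control levels, and recovered differed from S961 by less than 1.5-fold.

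Over the whole class the type IV collagens of the basement membrane differed less between libraries, and many cells carried them. Col4a1 and Col4a2 encode chains that assemble into the same type IV collagen, and they lie head to head on chromosome 8, Col4a1 on the minus strand from 11198423 to 11312826 and Col4a2 on the plus strand from 11312805 to 11449287, so that their first bases overlap by 22. Col4a1 was at 784 CPM in control, 1155 in S961 and then 1026 in recovered, and Col4a2 at 311, 519 and 447 CPM. S961 over control was 0.56 (0.29 to 0.84) on the log2 scale for Col4a1, below the 1.5-fold rule, and 0.74 (0.31 to 1.20) for Col4a2, above it. No stromal cell held over 13% of either gene's UMIs in any library. Of the collagens that carry the antiangiogenic fragments restin and endostatin, Col15a1 was at 74.4, 183 and 90.0 CPM and Col18a1 at 149, 331 and 324 CPM. Over the whole class Col15a1 was thus high in S961 alone, 2.47-fold over control and 2.04-fold over recovered. Col18a1 was high in S961 and recovered alike. For Col15a1, recovered over S961 was 0.12 (-0.55 to 0.72) on the log2 scale within Mfap5-led cells. Its log2 ratio of S961 over control was -0.14 in sub-cluster 0 of the Rgs5-led cells, described below. Laminin and nidogen, which bridge cells and type IV collagen, had few UMIs. Lamc1 was at 67.6, 118 and 72.0 CPM and Nid1 at 101, 174 and 212 CPM, each higher in S961 by the 1.5-fold rule, and the interval of Lamc1 included 0. Lamb1 (74.4, 92.8 and 86.4 CPM) differed by less than 1.5-fold, and Lama4, with 20.3, 21.4 and 57.6 CPM, did not reach 50 UMIs in any comparison.

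Collagen VI, a beaded microfibril found around cells, and fibronectin were lowest in control, higher in S961 and highest in recovered. Col6a1 was at 94.7, 334 and 800 CPM, Col6a2 at 40.6, 151 and 353 CPM, and Col6a3 at 135, 365 and 515 CPM. Col6a1 had log2 ratios of 1.82 (1.06 to 2.70) and 1.26 in the 2 steps, and both intervals left out 0. Within single kinds of stromal cell the second step of Col6a1 was -1.13 in Rgs5-led cells, on 6 UMIs in recovered, and 0.01 in Mfap5-led cells. Col6a2 had -0.76 in Rgs5-led and 0.37 in Mfap5-led cells, both with intervals that included 0. Col6a3 had -1.16 in Rgs5-led cells, with an interval that included 0, and 0.92 in Mfap5-led cells. Fn1, the cell-adhesive glycoprotein fibronectin, rested on 6, 346 and 133 UMIs, or 40.6, 255 and 479 CPM. It was 6.28-fold higher in S961 than in control, with a log2 interval of 1.51 to 4.11. In control 83.3% of its UMIs lay in 1 cell.

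Matricellular proteins, which modulate cell contact rather than bear load, showed several patterns. Sparc (chromosome 11, 55394500 to 55423183) was at 2022 CPM (1799 to 2264) in control, 3988 (3883 to 4096) in S961 and 4318 (4077 to 4570) in recovered, and was counted in 84.4%, 93.7% and 95.3% of the stromal-like cells, which had medians of 1981, 5400 and 4778 UMIs. In beta-like cells, with medians of 7541, 17289 and 10407 UMIs, the shares were 0.243%, 1.71% and 0.0983%. The S961 and recovered levels were 1.97-fold and 2.14-fold that of control. Postn, the collagen-binding protein periostin, was at 67.6, 220 and 602 CPM, and its recovered over S961 log2 ratio turned to -0.45 within Mfap5-led cells. Tnc, the anti-adhesive protein tenascin-C, had its highest level in S961, at 568 CPM beside 237 in control and 151 in recovered. Its log2 ratio of recovered over S961 was -1.91 (-2.39 to -1.46), and 91.4% of its control UMIs lay in 1 cell, without which control stood at 22.3 CPM. Cilp, cartilage intermediate layer protein, was at 6.76, 157 and 25.2 CPM, and its control level was 1 UMI. Its S961 UMIs were found in 4.60% of the cells, 31.5% of them in 1 cell. Fbln2, an elastic fibre and basement membrane binder, was also highest in S961, at 101 CPM beside 47.3 in control, where 1 cell held all of its UMIs, and 14.4 in recovered. Fbln1, its relative, was at 0, 16.2 and 28.8 CPM and could not be measured by the 50 UMI rule. Mgp, matrix Gla protein, an inhibitor of calcification, was at 12312, 12193 and 14810 CPM and differed by less than 1.5-fold in all comparisons of the whole class.

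Small leucine-rich proteoglycans, which coat and space collagen fibrils, were higher in S961 than in control in each case. Dcn, decorin, was at 264, 704 and 1707 CPM, higher at each step, with log2 ratios of 1.42 (0.96 to 1.92) and 1.28 (1.12 to 1.44). The second step turned to -3.70 within Rgs5-led cells, on 1 UMI in recovered, and was 0.20 (-0.09 to 0.48) within Mfap5-led cells. Bgn, biglycan, was at 494, 994 and 1037 CPM, high in S961 and recovered alike, and 69.9% of its control UMIs lay in 1 cell. Lum, lumican, was at 20.3, 115 and 130 CPM and rested on 3 UMIs in control, for a ratio of 5.67 whose log2 interval ran from 0.93 to 4.80.

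Of the metalloproteinases, Mmp14, the membrane-bound enzyme that cuts fibrillar collagen and activates Mmp2, was at 67.6 CPM in control, 177 in S961 and 195 in recovered. S961 and recovered were 2.61-fold and 2.88-fold higher than control, and 52.3% of S961 cells carried a UMI, beside 15.6% in control. Cells thinned to 2000 UMIs gave 23.9% and 16.1%, a smaller gap, on the 155 and 31 cells deep enough to be thinned. Medians over all cells before thinning were 5400 and 1981 UMIs. Mmp2, gelatinase A, was at 47.3, 67.0 and 39.6 CPM and was lower in recovered than in S961 by the 1.5-fold rule, with a log2 interval of -1.81 to 0.15 that included 0. Mmp3, stromelysin, which cuts proteoglycans, laminin and other proteases, was not counted in control, where a count of 0 allows up to 20.3 CPM. It was at 92.1 CPM in S961 (125 UMIs) and 169 in recovered (47 UMIs), so it was at least 4.54-fold higher in S961 than in control, with the control count set to 3 UMIs. That value came from few cells, since 1 cell held 71.2% of the S961 UMIs and 1 cell 53.2% of those of recovered. Without the highest cells, 36 and 22 UMIs were left, and the S961 count with 0 in control was under the 50 UMI rule. Adamts1, a protease of the proteoglycan versican, was at 156, 138 and 195 CPM and differed by less than 1.5-fold in each comparison.

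The stretch upstream of Mmp3 is shown because this gene had no UMI in control and is a textbook target of AP-1, the Fos and Jun factor complex. It holds the AP-1 motif TGANTCA and the TATA motif TATAAA, both in capitals, within the 250 bases before the start of the gene in RefSeq (GRCm38.p6, plus strand, chr9:7445572-7445821).
Mmp3: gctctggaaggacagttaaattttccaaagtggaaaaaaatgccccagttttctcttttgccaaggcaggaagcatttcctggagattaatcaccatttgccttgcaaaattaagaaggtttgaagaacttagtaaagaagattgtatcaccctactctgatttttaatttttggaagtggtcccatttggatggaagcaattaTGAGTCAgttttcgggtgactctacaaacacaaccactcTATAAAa
Searched on both strands, TGANTCA was found in 6.75% of 32851 such upstream stretches and in 2 of the 26 members matched to the RefSeq table, Mmp3 and Col6a1. TATAAA was found in 12.4% of all stretches and in 5 of 26 members (Col3a1, Tnc, Spp1, Mmp3 and Adamts1). Such a match is a description of the letters and shows no binding.

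Plasmin generation was represented by 2 activator genes. Plat, which encodes tissue plasminogen activator (chromosome 8, 22757727 to 22782844), was at 81.1 CPM (41.9 to 142) in control, 234 (209 to 261) in S961 and 202 (152 to 262) in recovered, 2.89-fold higher in S961 than in control. Plau, urokinase, had 1, 20 and 0 UMIs and was not measured in stromal-like cells.

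The inhibitors did not move together. Timp1 (chromosome X, 20870166 to 20874735), the secreted inhibitor of most metalloproteinases, was at 4050 CPM in control, 2216 in S961 and then 2301 in recovered, and so was lower by the 1.5-fold rule in both S961 and recovered. Of its 599 control UMIs, however, 98.3% came from 1 Mfap5-led cell, a kind with 3 cells in control and 58 in S961. With the highest cells out it was at 74.2 CPM in control, 1765 in S961 and 1072 in recovered, a log2 ratio of 4.57 (3.69 to 5.63) for S961 over control. Timp2 was at 101, 117 and 245 CPM, 2.09-fold higher in recovered than in S961, a log2 ratio that turned to -0.76 within Rgs5-led cells. Timp3, the matrix-bound inhibitor, was at 615, 508 and 339 CPM and was lower in recovered than in S961 (log2 ratio -0.59, -0.91 to -0.27) and than in control (-0.86, -1.29 to -0.43). These directions did not hold with cells thinned to 2000 UMIs, where recovered was 0.18 over S961 and 1.06 over control. The thinned control held 31 of 64 cells, since shallower ones were left out. Recovered over S961 also turned with the mean CPM over cells (0.16). Within Rgs5-led cells Timp3 also went the other way, as given with those cells.

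Lox, lysyl oxidase, which cross-links collagen and elastin, had the same dependence as Timp1. It was at 426 CPM in control, 142 in S961 and then 223 in recovered, and 1 cell held 96.8% of its 63 control UMIs. Without the highest cells 2, 142 and 47 UMIs were left, and S961 over control had a log2 ratio of 2.85 (0.97 to 5.91). The upstream stretch of Timp1 is shown as that of the member whose direction rested on 1 cell most. Its capitals mark CCAAT, here on the reverse strand as ATTGG (RefSeq, GRCm38.p6, plus strand, chrX:20869916-20870165).
Timp1: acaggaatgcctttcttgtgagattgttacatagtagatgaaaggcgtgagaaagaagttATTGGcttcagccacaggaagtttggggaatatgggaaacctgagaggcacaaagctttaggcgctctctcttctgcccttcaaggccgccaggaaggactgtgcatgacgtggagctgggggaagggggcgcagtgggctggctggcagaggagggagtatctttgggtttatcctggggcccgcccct
CCAAT on either strand was found in 33.8% of the 32851 stretches and in 10 of 26 members, Col4a1, Col4a2 and Timp1 among them. Neither TGANTCA nor TATAAA was found in the Timp1 stretch.

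**Figure D3:**
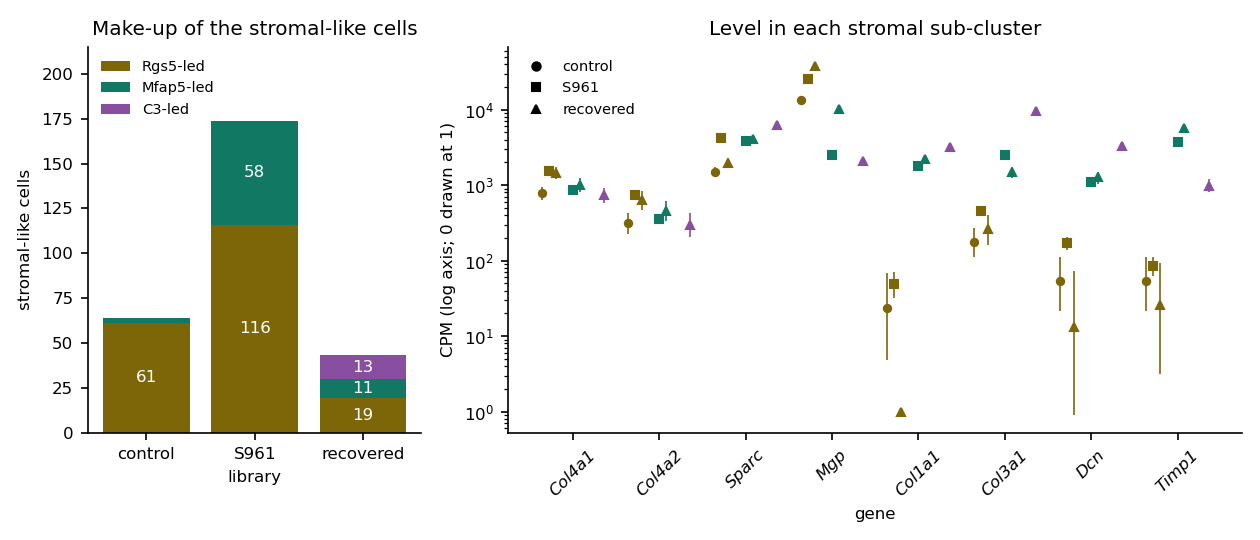
Left, the number of Rgs5-led, Mfap5-led and C3-led stromal-like cells in each library; right, CPM on a log axis with 95% counting intervals for 8 genes in each kind of stromal cell holding at least 5 cells, by library. Col1a1, Col3a1, Dcn and Timp1 lie far lower in Rgs5-led cells (brown) than in the other 2 kinds, whose share of stromal-like cells was larger in S961 and recovered.

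The comparison was then made within each kind of stromal cell, since the mixtures differed. Rgs5-led cells in S961 carried more of nearly every measured member than those of control. Of 25 members measured, 23 were higher by 1.5-fold (23.3% of 2538 genes), 0 were lower (5.91%), and the median log2 ratio was 1.26 beside 0.17 over all genes. In these cells Col4a1 was at 790 CPM in control, 1539 in S961 and then 1448 in recovered, and Col4a2 at 318, 731 and 639 CPM. Both collagen IV chains were thus about as high in recovered as in S961, with S961 over control at 0.96 (0.66 to 1.27) and 1.20 (0.74 to 1.70) on the log2 scale. Sparc, at 1495, 4204 and 1983 CPM, was high in S961 alone, with a log2 ratio of 1.49 (1.28 to 1.71) over control and a recovered level 2.12-fold lower than in S961. Mgp was at 13471, 25267 and 38311 CPM, higher at each step by the 1.5-fold rule, while it had not differed in the whole class. Col18a1 (170, 525 and 613 CPM), Mmp14 (62.0, 144 and 157 CPM) and Plat (85.2, 246 and 222 CPM) were also high in S961 and recovered alike. For Mmp14 and Plat, recovered and control together did not reach 50 UMIs, so that comparison was not measured. Timp3 was at 519, 688 and 1096 CPM, higher in recovered than in S961 (log2 ratio 0.67, 0.31 to 1.01), the reverse of the whole class. Mmp2, Mmp3, Fbln1 and Fbln2 had no UMI in Rgs5-led cells of any library.

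Col1a2, Col3a1 and the proteoglycan gene Bgn followed a course like that of Sparc in these cells. Col1a2 was at 23.2, 199 and 65.2 CPM, Col3a1 at 178, 461 and 261 CPM, and Bgn at 163, 447 and 261 CPM. Each was highest in S961 and lower again in recovered by the 1.5-fold rule, the reverse of the step seen over all stromal-like cells for both collagens. The recovered values came from 19 cells, of which 21.1% held a UMI of Col1a2. In all, recovered Rgs5-led cells had 3 of 25 members higher than S961 (6.64% of genes) and 12 lower (25.8%), a median log2 ratio of -0.44 beside -0.20. Of these, 2 higher and 7 lower members had an interval that left out 0. Against control only 7 members were measured, of which 5 were higher (9.95%) and 0 lower (14.6%). Hormone RNA was 10.3% of the UMIs of Rgs5-led cells in control, 0.591% in S961 and 9.10% in recovered. It moved with the S961 library, and its part in these ratios was not tested. The pericyte markers, 14 of 14 with UMIs in each library, summed to 5446, 7563 and 6066 CPM.

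Rgs5-led cells fell into 2 sub-clusters that the libraries also filled unequally. Sub-cluster 0 held 14 cells in control and 106 in S961, and within it 16 of 20 members were higher in S961 (27.9% of genes) and 0 lower (14%). There Col4a1 was at 453 and 1576 CPM and Sparc at 1988 and 4353 CPM. Of the 16, 7 had an interval that left out 0. Sub-cluster 2, with more beta-cell RNA, held 47 and 10 cells, and 3 of its 7 measured members were higher (14.4%) and 1 lower (8.19%).

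Mfap5-led cells could be compared between S961 (58 cells) and recovered (11 cells) alone, since control held 3. Of 34 members measured, 6 were higher in recovered (11.1% of genes) and 8 lower (20.7%), with a median log2 ratio of 0.07 beside -0.10. Col1a1 was at 1783 CPM in S961 and 2200 in recovered, and differed by less than 1.5-fold, as did Col1a2, Col5a1, Col5a2, Sparc and Dcn. Col3a1 was lower in recovered, at 2486 and 1477 CPM. Tnc (979 and 340 CPM), Lox (243 and 85.0 CPM), Timp3 (375 and 95.7 CPM), Cilp (272 and 53.1 CPM) and Fbln2 (176 and 42.5 CPM) were lower too. Fn1 (401 and 850 CPM), Col6a3 (505 and 956 CPM), Timp2 (138 and 276 CPM) and Mmp14 (201 and 329 CPM) were higher. Mgp was 4.01-fold higher in recovered, at 2527 and 10138 CPM.

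The 13 C3-led cells, all of them recovered, had high levels of interstitial members. Col3a1 was at 9477 CPM there, Col1a2 at 3480, Dcn at 3312, Col1a1 at 3190, Col6a1 at 1619 and Postn at 1244. Mmp3 was at 299 CPM, Spp1 and Timp3 were each at 9.36 CPM, and Col15a1 had no UMI. With no such cell in the other libraries, these levels have no counterpart in control or S961, and a kind of cell seen in 1 library cannot be told apart from that library.

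Other matrix genes of the stromal-like cells were counted by lists that hold none of the 38. For S961 over control, where 24.5% of all stromal genes were higher and 8.31% lower, 5 of 13 measured fibril and microfibril genes were higher and 0 lower, among them Mfap4 (13.5 and 78.1 CPM), the fibrillar collagen Col5a3 (81.1 and 201 CPM), Col8a1 and the microfibril gene Fbn1. Of 17 proteoglycan and matricellular genes 9 were higher and 0 lower. Ctgf, connective tissue growth factor, was at 87.9 and 303 CPM, Wisp1 at 47.3 and 200 CPM, and Thbs1, thrombospondin-1, at 94.7 and 226 CPM. Thbs2 had no UMI in control and 77.4 CPM in S961, at least 3.81-fold higher. Of 16 collagen folding and cross-linking genes 6 were higher and 1 lower. Serpinh1, the collagen chaperone HSP47, was at 757 and 1213 CPM, and the prolyl hydroxylase gene P4ha2 was the lower one, at 216 and 110 CPM. Of 13 further proteases and inhibitors 7 were higher and 0 lower. Plaur, the urokinase receptor, was at 47.3 and 240 CPM. Of 14 TGF-beta signalling genes, a pathway that drives matrix production, 8 were higher and 1 lower, with Inhba, an activin subunit, at 237 and 1089 CPM and the target gene Pmepa1 at 581 and 1025 CPM. Of 10 matrix receptors 5 were higher and 0 lower, with the hyaluronan receptor Cd44 at 27.0 and 136 CPM and the integrin Itgb1 at 325 and 490 CPM. Of 2 measured further basement membrane genes 1 was higher and 0 lower. The median log2 ratios of these lists ran from 0.22 to 1.00, beside 0.16 over all genes. Inhba and Mfap4 were among the leading genes of Mfap5-led cells, which numbered 3 in control and 58 in S961. No values within single kinds of stromal cell are given for these lists. The lowest control levels named rested on few UMIs.

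Recovered over S961, the same lists split, beside 9.43% of all genes higher and 24.3% lower. Of 16 fibril and microfibril genes 7 were higher, with Emilin1 at 118 CPM in S961 and 331 in recovered, and 4 lower, with elastin (Eln) at 166 and 14.4 CPM. Of 17 proteoglycan and matricellular genes 4 were higher, the adhesion protein gene Vtn among them (49.4 and 213 CPM), and 5 lower, with the syndecan Sdc1 at 203 and 68.4 CPM. The collagen folding and cross-linking list had 6 higher and 1 lower among 17, with P4hb at 284 and 565 CPM. Of 16 proteases and inhibitors 3 were higher and 3 lower. The TGF-beta signalling list had 2 higher and 4 lower among 14, with Inhba at 1089 and 263 CPM and Tgfb1 at 448 and 292 CPM. The matrix receptors had 2 higher and 3 lower among 10, with Cd44 at 136 and 46.8 CPM, and the 2 further basement membrane genes split evenly. Inhba and Eln were among the leading genes of Mfap5-led cells, which numbered 58 in S961 and 11 in recovered. Against control, where 20.1% of all genes were higher and 12.7% lower, no list of recovered cells held a lower gene. The higher ones were 4 of 6 fibril and microfibril genes, 4 of 7 proteoglycan and matricellular genes, 5 of 8 collagen folding genes, 3 of 6 proteases and inhibitors, 2 of 4 matrix receptors and 0 of 4 TGF-beta signalling genes.

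Endothelial-like cells showed smaller differences. Of 17 members measured, 5 were higher in S961 than in control (8.29% of 5889 genes) and 2 lower (3.45%), with a median log2 ratio of 0.30 beside 0.05. Recovered over S961 had 3 higher (5.08%) and 3 lower (6.95%), with a median of -0.28 beside -0.02. Recovered over control had 2 of 13 higher (6.16%) and 1 lower (3.96%), with a median of 0.20 beside 0.03. The fibrillar collagen gene Col1a1, Dcn, Lum, Postn, Lox, Mmp2 and Mmp3 had no UMI in endothelial-like cells of any library.

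**Figure D4:**
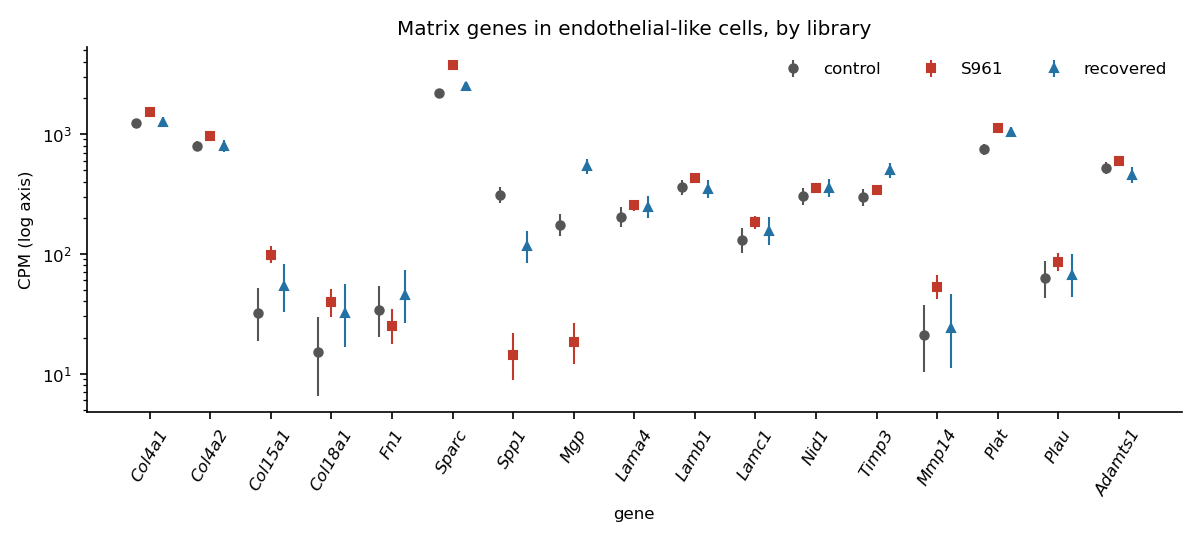
CPM on a log axis with 95% counting intervals of the 17 measured members in endothelial-like cells of the control (grey circles), S961 (red squares) and recovered (blue triangles) libraries. The S961 squares lie highest for Col15a1, Sparc, Mmp14 and Plat and lowest for Spp1 and Mgp, while type IV collagen, laminins and nidogen differ little.

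Sparc was at 2190 CPM in control, 3770 in S961 and 2509 in recovered, high in S961 alone, with log2 ratios of 0.78 (0.69 to 0.88) over control and -0.59 (-0.69 to -0.49) for recovered over S961. Col15a1, at 32.2, 98.5 and 53.7 CPM, and Mmp14, at 20.8, 53.0 and 24.1 CPM, followed the same course, on 17, 145 and 20 and on 11, 78 and 9 UMIs. Col18a1 was at 15.1, 39.4 and 32.2 CPM, 2.60-fold higher in S961 than in control. The libraries filled the endothelial sub-clusters unequally too, and sub-cluster 2 held 2, 89 and 10 cells. In S961 that sub-cluster held 101 of the 145 UMIs of Col15a1, 48 of the 78 of Mmp14 and 43 of those of Col18a1. The part of this mixture in the ratios was not tested. Plat, which endothelial cells release to dissolve clots, was at 744, 1133 and 1044 CPM, and S961 was 1.52-fold over control, close to the 1.5-fold rule. It was counted in 75.9%, 84.4% and 85.7% of the cells, and in 64.6%, 73.4% and 78.7% after thinning.

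The type IV collagen, laminin and nidogen genes of the basement membrane stayed within 1.5-fold in each comparison. Col4a1 was at 1244, 1526 and 1258 CPM and Col4a2 at 789, 968 and 794 CPM, with S961 over control at 0.30 (0.17 to 0.42) and 0.29 (0.14 to 0.46) on the log2 scale. Lama4 was at 204, 253 and 247 CPM, Lamb1 at 360, 428 and 349 CPM, Lamc1 at 131, 183 and 156 CPM and Nid1 at 303, 357 and 354 CPM. Each of the 6 was highest in S961, and for Lama4 and Nid1 the interval of S961 over control included 0. Adamts1 (521, 592 and 459 CPM) and Plau (62.5, 85.6 and 67.1 CPM) also differed by less than 1.5-fold. Timp3 was at 297, 341 and 499 CPM and was 1.68-fold higher in recovered than in control. Fn1, at 34.1, 25.1 and 45.6 CPM, was higher in recovered than in S961 by the 1.5-fold rule, with an interval that included 0.

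Mgp and Spp1 were the 2 members lower in S961 endothelial-like cells, and single cells held most of the UMIs of Mgp. It was at 174, 18.3 and 539 CPM, and 1 cell held 91.3%, 66.7% and 68.2% of its UMIs in the 3 libraries. Without those cells it was at 15.4, 6.17 and 176 CPM. Spp1 was at 312, 14.3 and 115 CPM, counted in 35, 16 and 6 cells, and 1 cell held 86.0% of the recovered UMIs. Without the highest cell of each library its S961 over control log2 ratio was -4.13 (-4.99 to -3.36). It went with the beta-cell marker sum of these cells, which was also lowest in S961, and the part of beta-cell RNA in it was not tested. In sub-cluster 1 of the endothelial-like cells, which held 24, 84 and 20 cells, 3 of 13 members were higher in S961 than in control (13.9% of genes) and 2 lower (6.29%). There Sparc was at 1885 and 3433 CPM and Plat at 935 and 1430 CPM, while Col4a1 was at 1454 and 1344 CPM.

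Of the other matrix lists in endothelial-like cells, 12 genes were higher in S961 than in control and 0 lower, beside 8.29% and 3.45% of all genes. Proteoglycan and matricellular genes were higher in 4 of 7, with Igfbp7, a vascular matrix protein, at 1535 and 3223 CPM and Sparcl1, a relative of Sparc, at 470 and 777 CPM. Proteases and inhibitors were higher in 4 of 12. TGF-beta signalling genes were higher in 2 of 15 (Acvrl1 and Bambi), and matrix receptors in 2 of 11, with the collagen-binding integrin Itga2 at 20.8 and 76.1 CPM. None of 10 collagen folding genes, 2 basement membrane genes and 1 fibril gene passed 1.5-fold. Recovered over S961, 1 gene was higher (Ctgf, 53.7 and 107 CPM) and 6 were lower, beside 5.08% and 6.95% of all genes. Recovered over control, 4 were higher and 2 lower, beside 6.16% and 3.96%, with P4hb at 335 and 158 CPM.

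Spp1 (chromosome 5, 104435118 to 104441050) was the 1 member carried in quantity by endocrine cells, and its differences ran in different directions by cell class. A member was read in an endocrine class only where its level reached 10% of its highest level over the classes of at least 20 cells. Within a comparison the rule was applied to the library with the higher level. In alpha-like cells Spp1 was at 2683 CPM (2602 to 2766) in control, 4165 (4108 to 4222) in S961 and 1712 (1655 to 1770) in recovered. The S961 library was highest and the recovered one lowest, with log2 ratios of 0.63 (0.59 to 0.68) for S961 over control, where 6.53% of 8530 genes were higher and 1.78% lower, and of -1.28 (-1.34 to -1.23) for recovered over S961, where 3.81% of genes were lower and 2.52% higher. Recovered over control was -0.65 (-0.71 to -0.58), with 2.06% of genes lower and 4.5% higher. A UMI of Spp1 was found in 86.2%, 91.4% and 80.2% of the alpha-like cells, and in 75.0%, 79.8% and 67.9% after thinning to 2000 UMIs. The alpha-like cluster also held cells of the pancreatic polypeptide type, and the order of the libraries was the same in cells with at least as many Gcg as Ppy UMIs (2810, 4305 and 1659 CPM) and in the others (2442, 3855 and 1860 CPM). Without the highest cell of each library S961 over control was 0.58 on the log2 scale, just under the 1.5-fold rule.

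In beta-like cells Spp1 was at 998 CPM (985 to 1011) in control, 606 (595 to 617) in S961 and 431 (422 to 439) in recovered. Control was highest, S961 was lower by a log2 ratio of -0.72 (-0.75 to -0.69), in a comparison with 2.04% of 10781 genes lower and 5.7% higher, and recovered over control was -1.21 (-1.25 to -1.18), with 0.868% of genes lower and 2.55% higher. Recovered over S961, at -0.49, did not pass 1.5-fold, as 2.79% of genes did on the lower and 2.36% on the higher side. Shares of cells with a UMI followed, at 52.3%, 38.8% and 31.4%, and at 34.1%, 21.02% and 18.5% after thinning. Delta-like cells had 593, 397 and 420 CPM, all within 1.5-fold. Stromal-like cells had 1203, 3704 and 1203 CPM, with 3.08-fold higher Spp1 in S961 than in either other library, in 34.4%, 29.3% and 27.9% of the cells. In endothelial-like cells the shares were 24.8%, 7.58% and 8.57%, with medians of 3063, 6009 and 3987 UMIs. In stromal-like cells 1 cell held 38.8% of the control UMIs, 21.3% of those of S961 and 39.2% of those of recovered. The 7, 18 and 20 ductal-like cells had 12394, 13200 and 918 CPM. Macrophage-like cells had 564, 184 and 371 CPM, with the lowest value in S961.

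**Figure D5:**
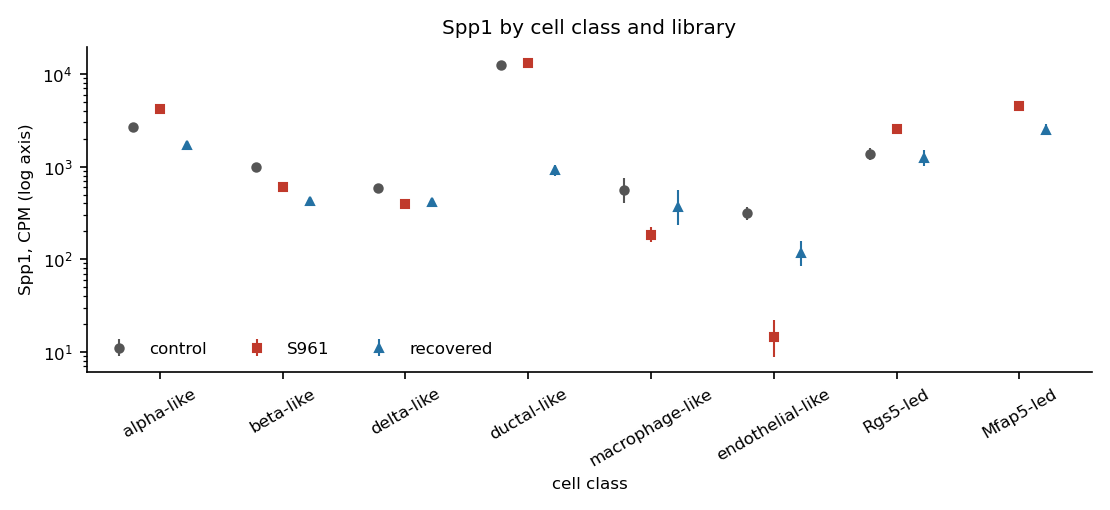
Spp1 level in CPM on a log axis, with 95% counting intervals, for 8 cell classes in the control (grey circles), S961 (red squares) and recovered (blue triangles) libraries. S961 is highest in alpha-like, Rgs5-led and Mfap5-led cells, and lowest in macrophage-like and endothelial-like cells, while beta-like cells are highest in control.

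The 250 bases upstream of Spp1 are shown because this member was counted in the most classes and differed in direction between them. Capitals mark TATAAA and CCAAT, the latter on the reverse strand as ATTGG (RefSeq, GRCm38.p6, plus strand, chr5:104434861-104435110).
Spp1: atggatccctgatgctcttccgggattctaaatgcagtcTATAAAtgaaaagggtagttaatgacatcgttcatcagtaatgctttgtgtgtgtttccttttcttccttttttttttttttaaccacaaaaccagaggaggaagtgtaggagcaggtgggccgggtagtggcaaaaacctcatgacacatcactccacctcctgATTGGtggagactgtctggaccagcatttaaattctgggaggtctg
The TATAAA match began 211 bases and the CCAAT match 46 bases before the RefSeq start of the gene, and no TGANTCA was found.

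Beside Spp1, the endocrine cells carried little matrix RNA. Timp2 could be read in delta-like cells, at 28.8 CPM in control, 48.5 in S961 and 29.1 in recovered. It passed the 10% rule through its S961 level alone, so a higher S961 level was a condition of its being read. The S961 level was 1.69-fold that of control (7.87% of 8464 genes higher and 2.81% lower). It was 1.67-fold that of recovered (5.64% of genes lower in recovered and 2.9% higher). Between recovered and control Timp2 was not read and no member was called in delta-like cells, beside 3.32% of genes higher and 2.15% lower. In alpha-like cells Timp2 was at 46.4, 45.3 and 40.5 CPM and did not differ by 1.5-fold. In beta-like cells it was at 11.8, 22.2 and 15.9 CPM, on 265, 443 and 354 UMIs, below 10% of its level in the highest class, and its ratios were not read.

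Some genes counted in beta-like cells lacked their partners. Col4a1 had 164, 139 and 223 UMIs in the beta-like cells of the 3 libraries, while Col4a2, made in like amounts by endothelial-like cells (657 and 417 UMIs in control), had 1, 8 and 1. Col6a3 had 214, 43 and 279 UMIs there, while Col6a1 had 0, 0 and 2 and Col6a2 had 0, 1 and 1. Their levels of at most 12.5 CPM were below the 10% rule and their ratios were not read. Of Col3a1, 1 of the most abundant stromal members, under 1% of beta-like cells held a UMI in any library, beside 51.1% of S961 stromal-like cells.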

How the data were processed

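The deposited values are counts: UMIs of each gene in each barcode, all whole numbers, made by the authors with Cell Ranger on mm10 per the submitters' processing notes, which name no version. The suffix of a barcode gave its library, per the labels, and 0 columns of per-sample values were left unused. The members and the gene lists were chosen with earlier results of these data known.

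Barcodes under 500 genes or above 20% mitochondrial UMIs were left out. Scrublet (expected rate 6%, in scanpy 1.11.5) called 3 of 4270 cells in control, 77 of 3507 in S961 and 24 of 3537 in recovered as doublets, which were left out. In control it marked 0.0703% of cells, so doublets there remained nearly unremoved. Clustering used 2000 variable genes without the members, 30 principal components, 15 neighbours and leidenalg 0.10.2 at resolution 0.5. The 19 clusters were named "-like" from 16 marker sets that hold no member. Names may differ from the authors' own. Stromal-like and endothelial-like cells were clustered again (1000 variable genes, 15 components). Sub-clusters led by hormone genes, processed pseudogenes, Gfap or Lyve1 were set apart after the clusters had been seen.

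UMIs were summed per class and library and given as CPM with exact Poisson 95% intervals. Ratios carry exact conditional (Clopper-Pearson) intervals. A gene was measured where both libraries together held 50 UMIs or more, and called higher or lower at 1.5-fold. The rule was tested on simulated counts that held counting error only, with no spread between cells or mice. That test does not cover values set by single cells. Where a library had no UMI of a gene, 3 UMIs stood in for it and the fold is a lower bound. Shares are of cells, also after thinning to 2000 UMIs, which left out cells under 2000 UMIs.

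All 38 members are accounted for. Values were given for members past 1.5-fold with an interval that left out 0, up to 12 each way in stromal-like, 10 in endothelial-like and 8 in endocrine cells, and always for 16 chosen genes. Of each other list up to 4 genes each way were named, and 1 gene that this rule names is not reported here. Leprel1 and the pericyte marker Gucy1a3 were not matched to the table. Coordinates of all 38 members, on 17 chromosomes, came from GENCODE M21 (GRCm38), and 26 matched the RefSeq upstream table. Python 3.11.15, numpy 2.4.6, pandas 2.3.3, scipy 1.17.1 and matplotlib 3.10.9 were used.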

Additional observations from a re-analysis of the deposited data

Results flagged for a closer look

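Spp1 moved in opposite directions in different cell classes. For S961 over control its log2 ratio was 1.62 in stromal-like and 0.63 in alpha-like cells, against -0.72 in beta-like and -4.45 in endothelial-like cells. For recovered over S961 it was -1.62 in stromal-like and -1.28 in alpha-like cells, against 3.02 in endothelial-like cells, where 1 cell held 86.0% of the recovered UMIs and the ratio turned to -0.99 with doublets kept. Timp2 was higher in recovered than in S961 in stromal-like cells (1.06) and lower in delta-like cells (-0.74), where it was read through its S961 level alone. Timp3 was lower in recovered than in control in stromal-like cells (-0.86) and higher in endothelial-like cells (0.75), but the stromal-like value turned to 1.06 with cells thinned to 2000 UMIs, 1.08 in Rgs5-led cells and 0.87 in their sub-cluster 0. Within Rgs5-led cells Timp2 turned too, to -0.76. With 1 library per group, none of these differences between classes was tested.

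Cells set apart from the comparisons also carried the members. The 19 Gfap-led cells of the S961 library, in which 4 Schwann markers of 5 were found in the sub-cluster, had a summed member level of 5850 CPM, with Plat at 749, Sparc at 695, Col18a1 at 642 and Timp3 at 492 CPM. The 9 Lyve1-led cells of the recovered library had 4973 CPM, with Sparc at 962, Dcn at 912, Fn1 at 763 and Tnc at 613 CPM. Dcn was counted in only 2 of them, and 1 cell held 65.5% of its UMIs. For Fn1 and Tnc, 1 cell held 52.2% and 56.8%. Neither kind of cell was counted in control, so neither has a control level.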

How the results depend on the processing

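The count of 26 members higher in S961 than in control stromal-like cells stayed within 1.5 times under each alternative run on the whole class. Over all classes and these settings, 243 of 294 member counts did so. Counts within single kinds or sub-clusters were not part of this check, and Rgs5-led sub-cluster 0 had 16 of 20 members higher. No paired analysis was possible because each group had 1 library. Leaving out a replicate was not possible for the same reason. Alternatives chosen after seeing the data were the sub-clusters set apart kept in, the highest cell of each gene left out, single sub-clusters (endothelial sub-cluster 1 and Rgs5-led sub-cluster 0) and the split of alpha-like cells. The 2 members lower in S961 stromal-like cells became 1 under the mean CPM over cells (mean CPM), with cells thinned to 2000 UMIs and at 2-fold, and 0 with the highest cells out. For recovered over S961 the 8 lower became 5 with mean CPM, centring, a minimum of 200 UMIs or 2-fold and 2 with thinning, and the 11 higher became 7 at 2-fold. For recovered over control the 4 lower became 0 with mean CPM, thinning or 2-fold, and 1 with a minimum of 200 or the highest cells out, and the 18 higher became 10 with thinning and 8 with a minimum of 200. In endothelial-like cells the 5 higher in S961 became 2 with thinning or a minimum of 200 and 3 at 2-fold, and the 2 lower became 1 with doublets kept, thinning or the highest cells out and 0 with a minimum of 200. For recovered over S961 the 3 higher became 1 with thinning, a minimum of 200 or the highest cells out and 5 with the sub-clusters set apart kept, and the 3 lower became 0 with thinning and 1 with a minimum of 200 or at 2-fold. For recovered over control the 2 higher became 1 with mean CPM or 2-fold and 4 with a minimum of 20 or the sub-clusters kept. In beta-like cells the 1 lower in S961 became 0 at 2-fold, and recovered over S961 went from 0 to 1 with thinning. In alpha-like cells the 1 higher in S961 became 0 with centring, 2-fold or the highest cells out, and the 1 lower in recovered than in control became 0 at 2-fold. In delta-like cells the 1 higher in S961 became 2 with members used for clustering, mean CPM, hormone genes left out, centring or the highest cells out and 0 at 2-fold, the 1 lower in recovered became 0 with doublets kept, thinning or 2-fold, and recovered over control went from 0 to 1 with mean CPM. The cause of these moves was not tested, except that a stricter minimum, fold or thinning leaves fewer genes to pass.

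Directions turned for these log2 ratios. For stromal-like S961 over control, Timp1 became 0.065 with mean CPM, 4.57 with the highest cells out and 0.65 within Rgs5-led cells, Lox became 2.85 with the highest cells out, and Col15a1 became -0.14 in Rgs5-led sub-cluster 0. For recovered over S961, Timp3 became 0.16 with mean CPM, 0.18 with thinning, 0.67 in Rgs5-led cells and 0.86 in their sub-cluster 0. Within Rgs5-led cells Col1a2 became -1.61, Col3a1 -0.82, Col6a1 -1.13, Col6a2 -0.76, Dcn -3.70 and Timp2 -0.76, and in sub-cluster 0 Col1a2 became -0.77, Col3a1 -0.25, Col6a1 -0.71 and Col6a2 -0.060. Within Mfap5-led cells Col3a1 became -0.75, Col15a1 0.12, Postn -0.45, Lox -1.52 and Mmp3 -0.0067. For recovered over control, Lox became 0.78 with mean CPM, Timp1 0.65 with mean CPM and 3.85 with the highest cells out, and Timp3 1.06 with thinning, 1.08 in Rgs5-led cells and 0.87 in their sub-cluster 0. In endothelial-like cells Spp1 became -0.99 for recovered over S961 with doublets kept. For the thinning, highest-cell and sub-cluster settings these values come from fewer cells, and the cause was otherwise not tested.

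Depth limits the control stromal-like cells most. Their 147906 UMIs put a count of 0 at up to 20.3 CPM, beside 2.21 in S961 and 10.8 in recovered, so low members such as Fbln1, Lama4 and Plau could not be compared there.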
